A study of Macaca fascicularis and Macaca mulatta with 24 samples.

Results

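Cytosolic ribosomal protein genes were followed in cynomolgus macaque cortex after a stroke model, in which the middle cerebral artery was occluded on the right (MCAO). A gene was taken if an array probe carried an RPL or RPS symbol followed by a number, or RPSA, RPLP1 or RPLP2, with the RPS6 kinase genes left out. The rule found 59 probes of 57 genes, and 56 of these genes were kept among the 15905 genes tested. The gene left out was RPS4Y1, the Y-linked copy of RPS4X, whose probe was well above background in Cy5 on 2 of 24 arrays. RPLP0, RPS3, RPL5, RPL13A, RPS4Y2, RPS27L, RPL7L1 and RPL22L1 had no matching probe and were not analysed here.

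At 5 min after MCAO each animal was given either placebo or TatNR2B9c (2.6 mg/kg) into a vein, and cortex was taken at 1 h or 6 h after MCAO. TatNR2B9c is a peptide that crosses membranes by its Tat sequence and uncouples NMDA receptors from the scaffold protein PSD-95. The right hemisphere was ischemic and the left hemisphere of the same treatment and time served as the non-ischemic side, so all 8 groups came from animals with an occlusion. Each group held 3 samples from 3 animals, and a left and a right sample with the same number were read as 1 animal. Each sample, in Cy5, was hybridised on its own 2-colour array against a Universal Reference RNA of rhesus macaque in Cy3. A value is the log2 ratio of sample to reference, so 0 means equal signal and −1 means a sample signal lower than the reference by a factor of 2.

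Ribosomal proteins assemble with ribosomal RNA into the small subunit, which decodes the message, and the large subunit, which forms the peptide bond. The acidic proteins RPLP1 and RPLP2 form the flexible stalk of the large subunit that recruits elongation factors, and RPS6 is the best known phosphorylation target among them, downstream of mTOR. Their messages are TOP mRNAs, which begin with a run of pyrimidines and are translated together under the control of mTOR. They are among the most abundant messages of a cell, and free RPL11 binds the ubiquitin ligase MDM2 when ribosome assembly fails. Protein synthesis is known to be blocked in brain tissue soon after ischemia.

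The probes themselves show what was read. AATAAA, the polyadenylation signal near the end of most messages, was searched for in the probes as listed. It lay in 25 of 56 probes of these genes (44.6%), against 12.8% of all 20217 gene probes on the array. Its reverse complement TTTATT lay in 0 of 56 and in 4.67% of all probes. The stretches around the signal (in capitals) are shown for the genes that carry the results below, because they place these readings at the very end of the message.
RPLP1: tataacgtgttcAATAAAaagctgaacttt
RPLP2: attcctgctcccctgcaAATAAAgcctttt
RPL11: cctggcaAATAAAttcccgtttctatccaa
RPS19: ccatgctgggttAATAAAttgcctcattcg
RPS6: attttttgagtaacaAATAAAtaagatcag
RPS3A: caattagtgtcaAATAAAaagtgctatttg
On the rhesus build rheMac2 these probes were listed at chr7:48103404-48103463 (RPLP1, plus strand), chr14:620406-620465 (RPLP2, plus), chr1:26305096-26305155 (RPL11, plus), chr19:48184402-48184461 (RPS19, plus) and chr15:57599380-57599439 (RPS6, plus). The RPS3A probe was listed at chr13:123238915-123238961 on the minus strand, over 47 bases only, although the probe has 60.

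The probes shown next, and also the RPS19 probe above, had at least 1 reading frame without a stop codon. RPL10L is a copy of RPL10 known from the testis. RPS4X, the X-linked form of S4, was read by a pair of probes that share 13 bases (in capitals, the second given by its first 30 bases), so the pair is no independent check.
RPL10L: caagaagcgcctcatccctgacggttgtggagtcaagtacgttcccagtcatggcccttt
RPS4X, upstream probe: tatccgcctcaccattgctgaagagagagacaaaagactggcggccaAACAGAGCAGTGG
RPS4X, downstream probe: AACAGAGCAGTGGgtgaaatgggtccctgg
They were listed at chr7:109745114-109745173 (RPL10L, minus), chrX:71201227-71201286 and chrX:71201180-71201239 (RPS4X, both minus). Ribosomal protein genes have many processed copies in primate genomes. The newest annotation lists probe positions on the rhesus genome, and the oldest lists them on human chromosomes. Of 50 members with both, 17 (34%) were placed on a rhesus chromosome other than a usual partner of the human one. Over all 14413 probes with both, the share was 4.17%. RPS3A, RPL3, RPL7 and RPL15 were among these members. Reads of copies with the same sequence cannot be told apart from the named gene.

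The arrays fell into 3 campaigns by version of the extraction software, namely placebo at 1 h, placebo at 6 h and all TatNR2B9c arrays, so treatment and, under placebo, time cannot be told apart from campaign. On 3 placebo 1 h arrays (left arrays 1 and 3 and right array 3) the reference was weak, with 15.7% to 22.2% of probes well above background in Cy3, against 50.7% or more on each other array. Precision is limited by 3 arrays a group. Of the 56 genes, 41 had a probe at or above the 75th percentile of mean intensity over all genes tested (bright), and the other 15 were dim. The dim genes included RPL7, RPL10, RPL28, RPL34, RPL37 and RPL37A, which were not well above background in Cy3 on any placebo 1 h array, and 0 member spots were saturated throughout a group. The RPL37A probe was listed for a cDNA with an apparent retained intron. That of RPL7 was placed on rhesus chromosome X, while its human position is on chromosome 8. Repeat spots of a probe on 1 array differed by a median of 0.10 on the log2 scale. Markers of cortex were present: 14 of 15 neuron and 10 of 10 astrocyte genes were measured, and their mean log2 ratios lay above 0 in every group (1.03 to 3.68 for neurons).

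Most of these genes gave a lower signal in cortex than in the reference. RPL15, a large subunit protein, had the highest mean log2 ratio over the 24 arrays, 1.21, and lay above 0 on each of them, from 0.21 to 2.14. The lowest means belonged to RPL3L, a copy known from muscle, at −1.91, and RPL39L, a copy known from testis, at −1.90. RPS3A at −1.72 and RPL27A at −1.45 followed, then RPL10L at −1.39. The median over the members ran from −1.30 on placebo right 1 h array 3 to −0.18 on TatNR2B9c left 1 h array 1. The 3 arrays of a group gave medians of −0.18, −0.96 and −0.65 for placebo left 1 h and −0.88, −0.73 and −1.30 for placebo right 1 h. For placebo at 6 h they were −0.18, −0.50 and −0.37 on the left and −0.85, −0.75 and −0.83 on the right. Here every right array lay below every left array. For TatNR2B9c they were −0.18, −0.25 and −0.71 on the left and −0.42, −0.71 and −0.63 on the right at 1 h. At 6 h they were −0.51, −0.42 and −0.31 on the left and −0.30, −0.43 and −0.35 on the right, where both sides overlapped.

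**Figure D1:**
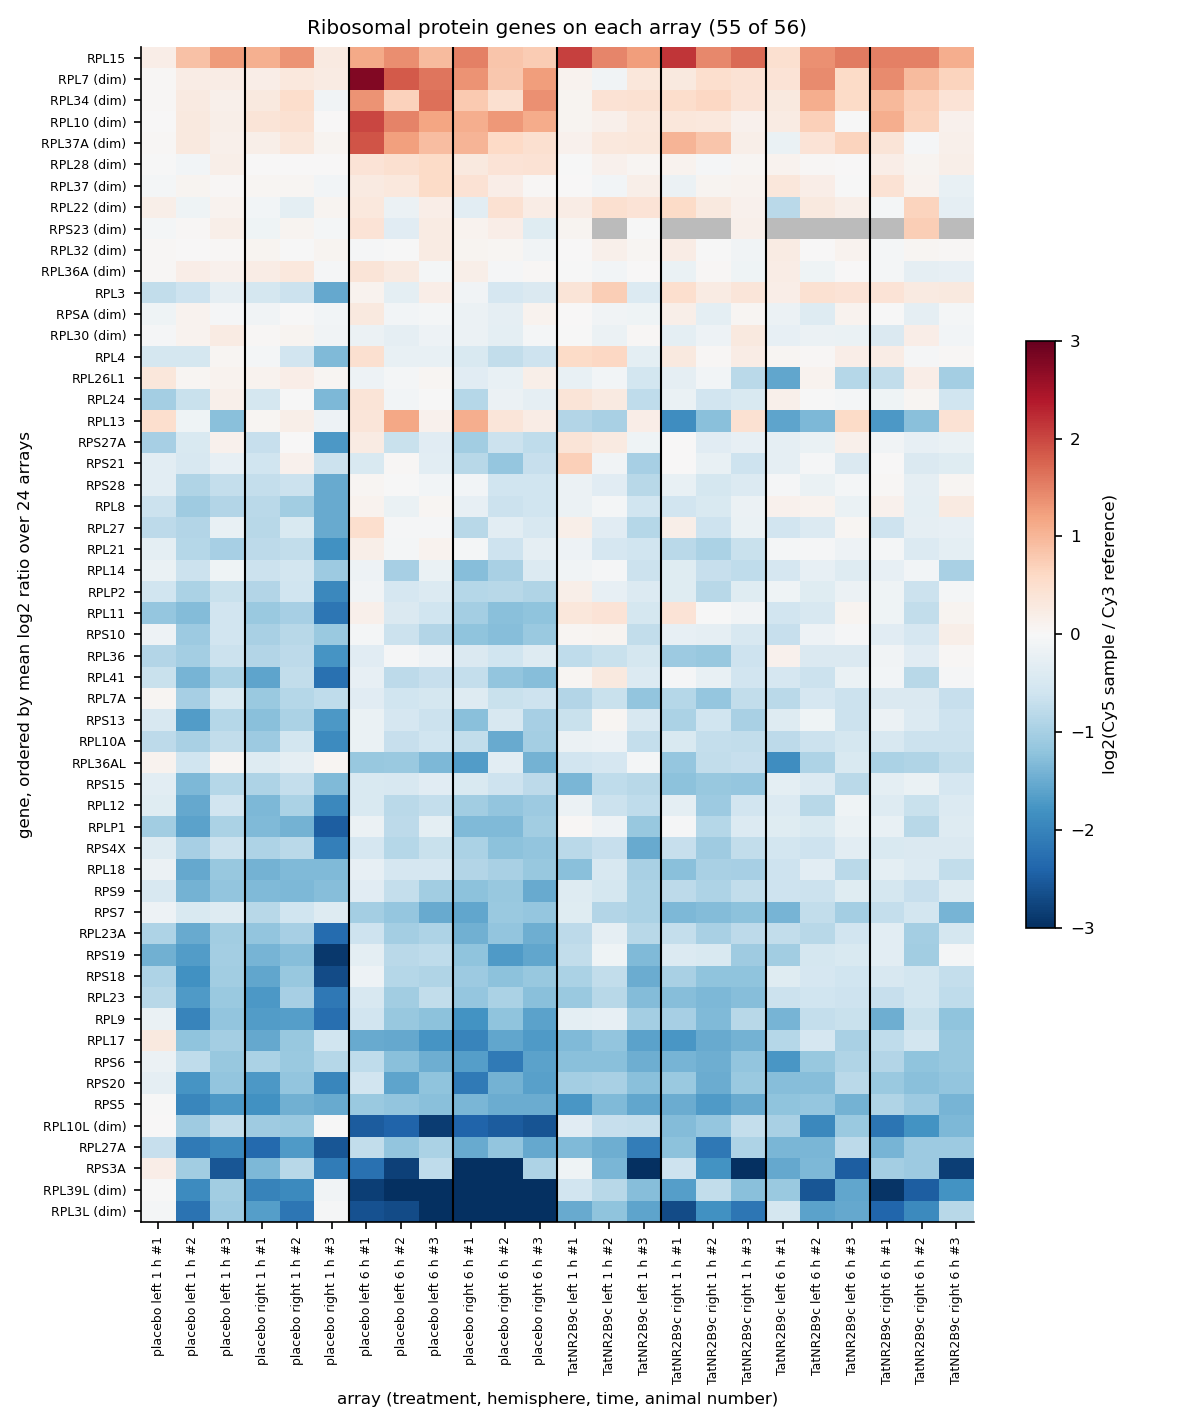
Log2 ratio of sample (Cy5) to reference (Cy3) of 55 of the 56 ribosomal protein genes, one per line, on the 24 arrays ordered by treatment, time and hemisphere, with colours capped at −3 and 3, grey for no value and dim probes marked. Most genes lie below 0, RPL15 lies above 0 on each array, and RPS3A and RPL13 change from array to array within a group.

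**Figure D2:**
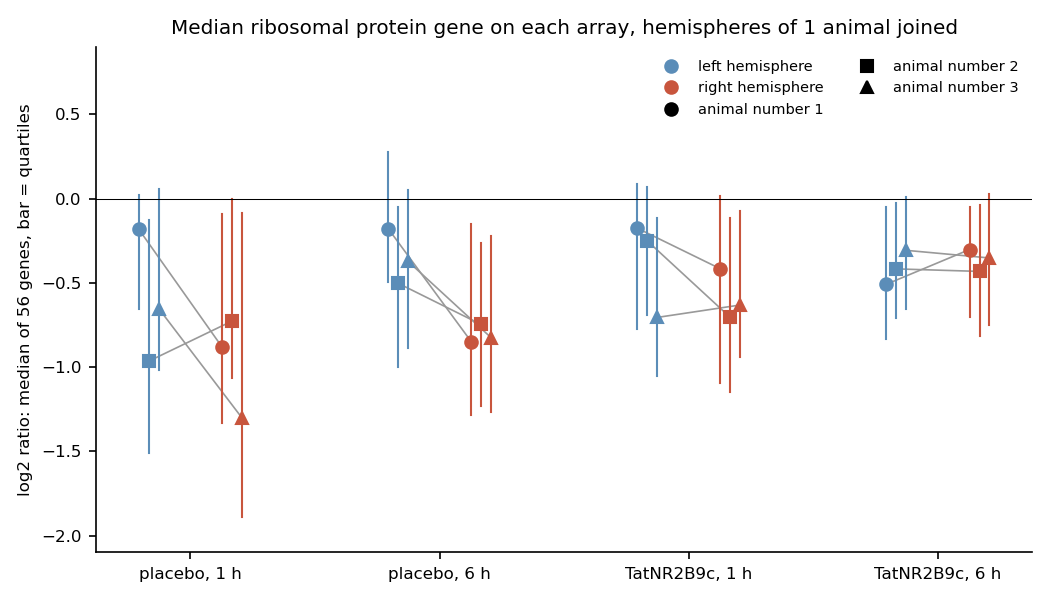
Median log2 ratio of the ribosomal protein genes on each of the 24 arrays, with bars from the lower to the upper quartile over genes and lines joining the hemispheres of one animal. Under placebo at 6 h the 3 right arrays, at −0.85 to −0.75, lie below the 3 left arrays, at −0.50 to −0.18, and under TatNR2B9c at 6 h the sides overlap.

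The comparison of ischemic with non-ischemic cortex asks what the occlusion itself changed. Under placebo at 6 h, 51 of 56 ribosomal protein genes had a lower mean on the ischemic side, and their median difference (right minus left) was −0.44 on the log2 scale. Over all genes 60.8% lay below 0 and the median was −0.05, and in the brightest 10% of genes it was −0.13, with 72.5% below 0. No gene of any kind passed an adjusted p of 0.05 in limma (0%), and 14 ribosomal protein genes had an unadjusted p under 0.05, all of them lower, against 3.88% of all genes in either direction. In 25 of 56 genes the 3 right values lay below the 3 left values, and in 0 above, against 8.34% of all genes below. In 34 of 56 the right value was lower in 3 of 3 animals (16.7% of all genes). All 18 small subunit genes lay below 0, with a median of −0.49, and 33 of 38 large subunit genes, with a median of −0.39.

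Among the stalk proteins, RPLP1 had log2 ratios of −0.18, −0.80 and −0.29 in left and −1.31, −1.33 and −1.03 in right placebo cortex at 6 h. RPLP2 had −0.11, −0.51 and −0.40 on the left and −0.85, −0.83 and −0.89 on the right. In both genes the groups did not overlap. The difference was −0.80 (SE 0.32) for RPLP1 and −0.52 (SE 0.26) for RPLP2, with limma unadjusted p = 0.0215 and 0.0583 and adjusted p = 1.00 for each.

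Of the small subunit, RPS19, needed to mature the small subunit and mutated in Diamond-Blackfan anemia, had −0.30, −0.80 and −0.77 on the left and −1.20, −1.71 and −1.55 on the right. RPS6 had −0.76, −1.25 and −1.46 on the left and −1.65, −2.11 and −1.60 on the right. RPS9 had −0.33, −0.71 and −1.05 on the left and −1.23, −1.13 and −1.50 on the right. The right values lay below the left values in all 3 genes, with the narrowest gaps in RPS6 and RPS9. The differences were −0.87 (SE 0.38), −0.63 (SE 0.24) and −0.59 (SE 0.21), and their limma adjusted p was 1.00. RPS4X, at −0.50, −0.86 and −0.67 on the left and −0.96, −1.23 and −1.18 on the right, differed by −0.44 (SE 0.26), and its upstream probe by −0.36 (SE 0.32). RPSA, the laminin receptor protein of the small subunit, read by a dim probe, differed by −0.17 (SE 0.15).

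Of the large subunit, RPL11 had 0.14, −0.42 and −0.61 on the left and −1.01, −1.26 and −1.20 on the right, a difference of −0.86 (SE 0.33). RPL7 had the lowest unadjusted p, 0.00302 in limma (adjusted p = 1.00), with 2.77, 1.84 and 1.62 on the left and 1.35, 0.82 and 1.26 on the right. Its difference was −0.93 (SE 0.27), on a dim probe. RPL3, which reaches toward the peptidyl transferase center, had 0.11, −0.28 and 0.20 on the left and −0.11, −0.51 and −0.43 on the right, which overlap, and a difference of −0.36 (SE 0.26). RPL10 (−0.39, SE 0.23) and RPL22 (0.02, SE 0.27) overlapped too. The genes with a mean above 0 were RPL10L, RPL13, RPL22, RPL30 and RPL36AL, with RPL10L the highest at 0.09.

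Bright and dim probes differed in size. The 41 bright genes had a median difference of −0.48, 39 of them below 0, and the 15 dim genes −0.15, 12 below 0. By animal the median over members was −0.57, −0.26 and −0.35. The median stayed below 0 under every processing tried, from −0.16 in Cy5 alone to −0.51 without placebo left 6 h array 2. The left and right arrays of one placebo animal never shared a slide at 6 h. Within slide 5, which held right array 1 and left array 2, the median was −0.28 (45 of 56 below 0), and within the scan day that held the 3 right arrays and left array 2 it was −0.29 (48 of 56). Member intensity was also lower on the right array than on the left in each of these animals, by 0.83, 0.31 and 0.57 on the log2 scale averaged over both dyes, and its part in the result was not tested.

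Cell markers moved beside it. The 10 astrocyte markers had a median right-left difference of 0.52 with 9 above 0, and the 11 microglia and macrophage markers −0.26 with 10 below 0. Neuron markers lay at 0.10 (10 of 14 above 0) and oligodendrocyte markers at −0.06 (5 of 8 below 0). Mean log2 ratios of the astrocyte list ran from 0.17 to 1.91 over the left and from 1.09 to 1.76 over the right arrays, and those of the microglia list from −0.91 to −0.36 and from −0.98 to −0.83. None of these markers passed in limma, and their part in the result was not tested. In bulk cortex, fewer cells of a type and less RNA per cell cannot be told apart.

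At 1 h under placebo 48 of 56 genes lay below 0 in the right-left difference, with a median of −0.29, against 47.2% of all genes and a median of 0.01. None passed in limma (0% of all genes), 2 had an unadjusted p under 0.05 (1.33% of all genes), and in 0 of 56 did the groups stand apart (1.58% of all genes stood apart with the right side lower). All 18 small subunit and 30 of 38 large subunit genes lay below 0. RPS4X had −0.40, −1.00 and −0.66 on the left and −0.93, −0.82 and −2.06 on the right, a difference of −0.59 (SE 0.26, limma unadjusted p = 0.0379, adjusted p = 1.00). RPL7A (−0.44, SE 0.20) and RPL9 (−0.74, SE 0.36), both of the large subunit, followed. RPLP1 differed by −0.54 (SE 0.32), RPLP2 by −0.39 (SE 0.26), RPS19 by −0.47 (SE 0.38) and RPL11 by −0.41 (SE 0.33). The animals did not move together, with medians of −0.35, 0.21 and −0.43. Without the 3 arrays of weak reference the median was 0.15, but this set left array 2 alone against right arrays 1 and 2. In Cy5 alone, with all arrays, it was 0.10, so the direction at 1 h turned with the processing.

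Under TatNR2B9c the right-left medians were −0.13 at 1 h (42 of 56 below 0, 56.3% of all genes) and 0.03 at 6 h (26 of 55 below 0, 38.8% of all genes). The brightest 10% of genes had medians of −0.17 at 1 h (76.9% below 0) and 0.13 at 6 h (23.7% below 0). No gene passed in limma at either time (0%), with 1 member at an unadjusted p under 0.05 at 1 h (4.5% of all genes) and 0 at 6 h (3.25%). The 1 h median turned to 0.18 under median centring. At 1 h the right values lay below the left in 5 of 55 genes (12.3% of all genes) and 13 were lower in 3 of 3 animals (23.8%). At 6 h 0 of 55 genes stood apart in either direction (2.33% of all genes). RPS23, read by a dim probe with non-uniform spots, had no value in left TatNR2B9c cortex at 6 h and was left out wherever that group enters. At 1 h RPS7 of the small subunit had −0.36, −0.87 and −0.95 on the left and −1.34, −1.30 and −1.23 on the right, which did not overlap. Its difference was −0.56 (SE 0.22, limma unadjusted p = 0.0193, adjusted p = 0.926).

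At 6 h the genes lowest under placebo had their values mixed across sides under TatNR2B9c. RPLP1 had −0.36, −0.47 and −0.19 on the left and −0.23, −0.84 and −0.39 on the right. RPS19 had −1.05, −0.54 and −0.47 on the left and −0.31, −1.05 and −0.06 on the right. RPL11 had −0.58, −0.47 and 0.09 on the left and −0.14, −0.74 and 0.09 on the right. Their differences were −0.15 (SE 0.32), 0.21 (SE 0.38) and 0.06 (SE 0.33), all within the spread of the animals. The lowest were the dim copies RPL39L (−0.66, SE 0.51), RPL3L (−0.48, SE 0.53) and RPL10L (−0.43, SE 0.32), and the highest was RPL10 (0.31, SE 0.23). By animal the medians were 0.16, −0.04 and −0.13.

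**Figure D3:**
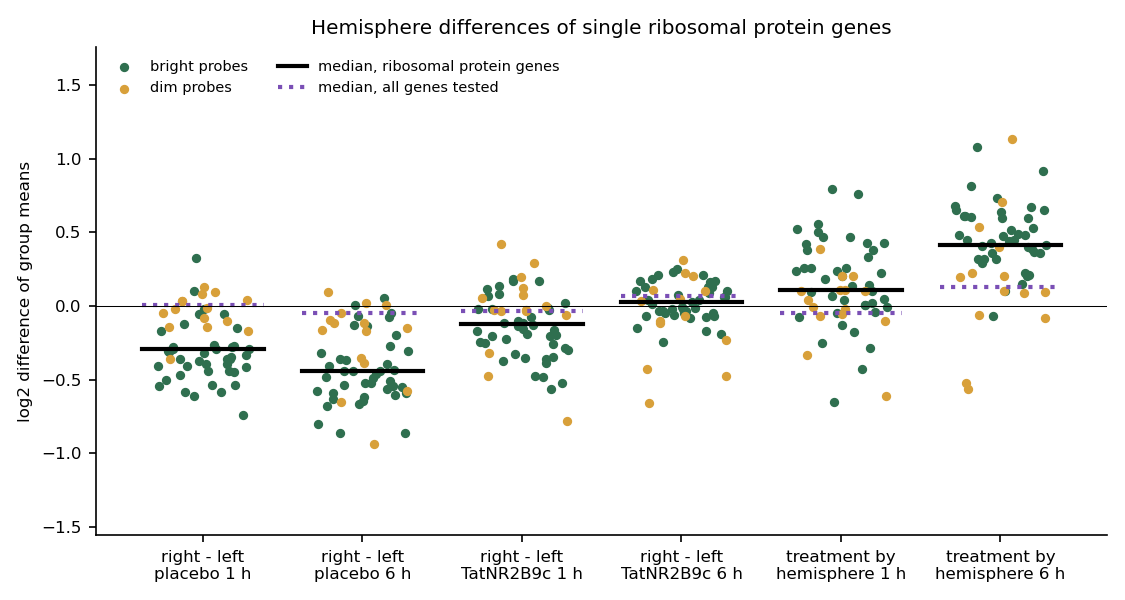
Right-minus-left log2 difference of each ribosomal protein gene in the 4 groups of animals, and the difference of these differences between treatments at 1 h and 6 h, with bright and dim probes apart and lines at the member and all-gene medians. The placebo 6 h genes centre on −0.44 and the TatNR2B9c 6 h genes on 0.03.

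Whether the right-left difference itself differed between treatments was tested as treatment by hemisphere, TatNR2B9c minus placebo. At 6 h it was above 0 in 50 of 55 genes with a median of 0.41, against 65.4% of all genes and a median of 0.13. No gene passed in limma (0%), and 3 members had an unadjusted p under 0.05 (4.28% of all genes). These were RPL7 at 1.14 (SE 0.39), RPS6 at 0.82 (SE 0.34) and RPL10 at 0.70 (SE 0.32), each with a limma adjusted p of 0.928. RPS19 (1.08, SE 0.54), RPL11 (0.92, SE 0.46) and RPLP1 (0.65, SE 0.45) had higher values too but did not pass at an unadjusted p of 0.05, and all 17 small subunit genes measured lay above 0. The bright genes had a median of 0.45, with 40 of 41 above 0, and the dim genes 0.15. The median was positive in each setting, from 0.13 in Cy5 alone to 0.56 under median centring. In Cy5 alone the median over all genes was 0.09, close to that of the members, and 17 of 55 members lay below 0. Placebo and TatNR2B9c arrays came from different campaigns, and each right-left difference was taken within one campaign. At 6 h no placebo animal had both sides on one slide, while every TatNR2B9c animal did. Treatment and slide pairing therefore cannot be told apart in this comparison. The median was 0.30 with slide and 0.28 with scan day as a fixed block. Oligodendrocyte markers had a median of 0.97 in this comparison (8 of 8 above 0, 0 called), and their part in it was not tested.

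At 1 h treatment by hemisphere had a median of 0.11, with 39 of 56 genes above 0, against 42.8% of all genes. No gene passed in limma (0%), and 0 members had an unadjusted p under 0.05 (1.74% of all genes). RPS4X led with 0.76 (SE 0.37, limma unadjusted p = 0.0551, adjusted p = 1.00), followed by RPL27A (0.80, SE 0.49) and RPL7A (0.43, SE 0.29). Without the arrays of weak reference the median was −0.27, with array 2 as the only placebo left 1 h array. Averaged over the 4 groups of animals, 50 of 55 genes were lower on the right with a median of −0.21, against 49.8% of all genes and a median of 0.00. No gene passed in limma (0%), and 12 members had an unadjusted p under 0.05, all lower (3.79% of all genes in either direction). RPL21 (−0.33, SE 0.12), RPL9 (−0.50, SE 0.18) and RPLP2 (−0.33, SE 0.13) had the smallest, each with a limma adjusted p of 0.888.

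**Figure D4:**
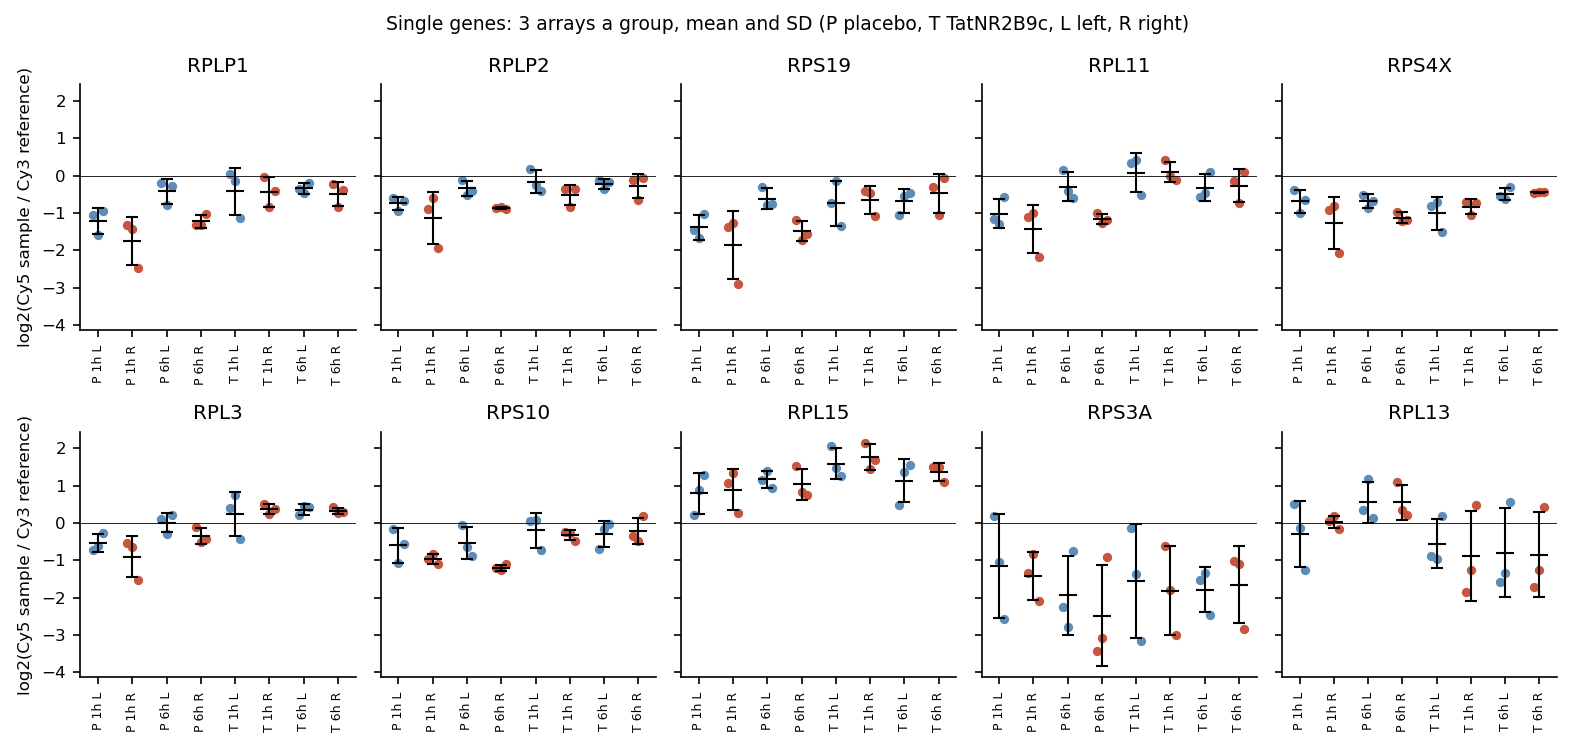
Log2 ratio of 10 ribosomal protein genes in the 8 groups, with 3 arrays a group as points and the mean and SD as bars. RPLP1, RPLP2, RPS19, RPL11 and RPS4X lie lower on the right than on the left under placebo at 6 h without overlap, while RPS3A and RPL13 spread widely within groups.

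The effect of treatment within a hemisphere compares arrays of different campaigns, so treatment and campaign cannot be told apart in any of the following values. In right cortex at 1 h, 3 of 56 genes rose under TatNR2B9c in limma and 0 fell, while 1.57% of all genes passed. RPL11 had −1.11, −0.99 and −2.18 under placebo and 0.41, 0.00 and −0.11 under TatNR2B9c, a rise of 1.52 (SE 0.33, limma adjusted p = 0.0249). RPLP1 rose by 1.31 (SE 0.32, limma adjusted p = 0.0441), from −1.33, −1.43 and −2.47 to −0.05, −0.85 and −0.41. RPL3 rose by 1.28 (SE 0.26, limma adjusted p = 0.0197), from −0.53, −0.64 and −1.53 to 0.51, 0.25 and 0.37. In all 3 genes the groups stood apart, as they did in 15 of 55 genes with TatNR2B9c higher (12.3% of all genes) and 4 lower (13.9%). The median was 0.28, with 41 of 56 above 0, beside a median of 0.02 and 53.3% over all genes, and 20 members had an unadjusted p under 0.05 (13.8% of all genes). The brightest 10% of genes had a median of 0.25, near that of the members, with 32.6% of them below 0. All 3 calls turned to a significant fall under median centring without loess (−2.89, −3.58 and −3.17). No gene passed when the scan day was a random block or when only the groups compared were fitted. The calls also rested on single arrays: 0 genes passed without placebo right array 3, without TatNR2B9c right array 1 or without TatNR2B9c right array 2, 1 passed without placebo right array 1 and 2 without TatNR2B9c right array 3. Neuron markers were higher beside them, with 14 of 14 above 0 and a median of 0.93. Their mean log2 ratio ran from 0.35 to 2.11 over placebo and from 2.12 to 2.35 over TatNR2B9c right arrays, and their part in the result was not tested.

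In right cortex at 6 h RPS10 of the small subunit was the only one of 56 to pass, and 4.28% of all genes passed. It had −1.21, −1.27 and −1.11 under placebo and −0.34, −0.50 and 0.18 under TatNR2B9c, a rise of 0.98 (SE 0.26, limma adjusted p = 0.0425). The median was 0.46, with 45 of 56 above 0, beside a median of 0.02 and 51.7% over all genes. The brightest 10% of genes had a median of 0.14, with 35.9% of them below 0. An unadjusted p under 0.05 was reached by 21 members (20.7% of all genes), and in 24 of 55 genes TatNR2B9c stood apart above placebo (18.4% of all genes). All 18 small subunit genes lay above 0. RPS10 lost the call when any 1 of placebo right arrays 1, 2 or 3 or TatNR2B9c right arrays 2 or 3 was left out (0 genes passed each time), 2 genes passed without TatNR2B9c right array 1, and RPS10 lay at −0.45 under median centring. No gene passed when only the groups compared were fitted or with the processed signals of the extraction software, and the member median was −0.77 under median centring. Red cell and neutrophil markers were higher beside it, 8 of 9 above 0 with a median of 0.31 and 2 passing in limma, HBB of hemoglobin at 5.89 (SE 0.70) and ALAS2 of heme synthesis at 1.88 (SE 0.35). Their mean log2 ratio ran from −1.43 to −1.23 over placebo and from −0.49 to 0.44 over TatNR2B9c right arrays, and their part in the result was not tested. Meninges and choroid plexus markers lay at a median of 0.69 (7 of 8 above 0, COL1A2 passing at 1.14), microglia markers at 0.30 (10 of 11 above 0), astrocyte markers at 0.45 (9 of 10 above 0) and neuron markers at −0.56 (12 of 14 below 0). Their part was not tested either.

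In left cortex at 1 h 0 of 56 genes passed in limma, and 0.893% of all genes did. In 12 members the unadjusted p was under 0.05 (9 higher), against 10.3% of all genes. RPL11 at 1.09 (SE 0.33, adjusted p = 0.137 in limma), RPL41 at 0.98 (SE 0.32) and RPL3 at 0.77 (SE 0.26) had the smallest p, and the median was 0.11. Without TatNR2B9c left 1 h array 3, 1 gene passed. In Cy5 alone 14 passed, and with the processed signals 3 passed and the median was −0.31. Under median centring 50 passed, 44 of them lower, the median was −4.35, and RPL11, RPL41 and RPL3 turned to −4.32, −4.37 and −4.71. Neuron markers had a median of 1.44 in this comparison (14 of 14 above 0) and astrocyte markers 0.82 (9 of 10 above 0), and their part in it was not tested. In left cortex at 6 h 3 of 55 rose and 4 fell, while 24.4% of all genes passed, and the median was −0.01. All 7 were dim. The copies RPL3L (1.62, SE 0.53), RPL39L (1.48, SE 0.51) and RPL10L (1.24, SE 0.32) were higher under TatNR2B9c, with limma adjusted p of 0.0319, 0.0422 and 0.00996. RPL7 (−1.27, SE 0.27), RPL10 (−1.24, SE 0.23) and RPL37A (−1.06, SE 0.25) were lower, with limma adjusted p of 0.00353, 0.00137 and 0.00611, and RPL28 (−0.45, SE 0.09) was lower too. RPL7 went from 2.77, 1.84 and 1.62 to 0.41, 1.42 and 0.58. The count was 4 without TatNR2B9c left array 1, where none of the 3 copies passed. It was 0 when only the groups compared were fitted, with arrays scaled to equal spread, with the processed signals and with the series matrix values. Neuron markers lay at a median of −0.67 (13 of 14 below 0), oligodendrocyte markers at −1.17 (8 of 8 below 0), and red cell and neutrophil markers at 0.67 (8 of 9 above 0, HBB at 5.03). Their part in the result was not tested. Right and left comparisons at one time use different arrays, but the right placebo arrays also enter the right-left and time comparisons, as do the left.

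The change from 1 h to 6 h under placebo crosses campaigns as well. In left cortex 12 of 56 genes were higher at 6 h and 6 lower in limma, while 54.1% of all genes passed, with a member median of 0.33 and 0.11 over all genes. In right cortex 6 were higher and 6 lower, while 40.8% of all genes passed, with medians of 0.21 and 0.04. Both shares of members lie below that of all genes. The brightest 10% of genes had medians of 0.36 on the left and 0.14 on the right. The member medians turned to −4.04 (left) and −3.50 (right) under median centring, and to −0.19 and −0.14 with the processed signals. All 14 neuron markers passed as higher at 6 h on both sides, with medians of 2.55 on the left and 2.16 on the right, as did 6 of 8 oligodendrocyte markers on the left (median 1.71) and 3 of 8 on the right (1.30). HBB, CD2 of lymphocytes and COL1A2 of meninges passed as lower on both sides (HBB at −2.17 and −3.74). The meninges and choroid plexus list did not move one way. On the right DCN and LUM also passed as lower, and FOXJ1 passed as higher (0.58, SE 0.13). The part of these cell types was not tested. RPL7 was at 0.04, 0.22 and 0.23 in left cortex at 1 h and at 2.77, 1.84 and 1.62 at 6 h, higher by 1.91 (SE 0.27, limma adjusted p = 2.46e-05). RPL10 was higher by 1.40 (SE 0.23) and RPL37A by 1.18 (SE 0.25). These 3 genes were not well above background in Cy3 on any placebo 1 h array, and in Cy5 alone RPL7 differed by 0.80, RPL10 by −0.36 and RPL37A by −0.070. In right cortex RPL7 (0.89, SE 0.27) and RPL10 (0.88, SE 0.23) passed as well, but RPL10 turned to −0.73 with the processed signals and with the series matrix values, and to −0.063 in Cy5 alone.

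The lowest log2 ratios at 6 h against 1 h were those of the copies, though most of these turned direction in Cy5 alone. RPL39L was at −0.01, −1.89 and −1.05 in left cortex at 1 h and −2.81, −3.05 and −3.84 at 6 h, lower by a log2 difference of −2.25 (SE 0.51, limma adjusted p = 0.00131). RPL10L differed by −1.99 (SE 0.32) and RPL3L by −1.73 (SE 0.53). In right cortex the differences were −1.99 (SE 0.51) for RPL39L, −1.76 (SE 0.32) for RPL10L and −2.14 (SE 0.53) for RPL3L, with RPL36AL at −0.94 (SE 0.33). In Cy5 alone RPL3L differed by 1.13 on the left and 0.51 on the right, RPL10L by 0.32 and 0.35, and RPL36AL by 0.71 on the right. With arrays scaled to equal spread RPL3L was at 0.13 on the left. The reference channel was higher at 6 h. For RPL3L in left placebo cortex the mean log2 Cy3 signal was 6.47 at 1 h and 11.11 at 6 h, while Cy5 was 6.74 and 9.36. For RPL10L Cy3 was 6.16 and 9.37 and Cy5 6.28 and 7.59, and at 1 h its probe was well above background in Cy5 on 1 of 3 left arrays. The count in right cortex was 7 without placebo right 1 h array 3, 6 without placebo right 6 h array 1 and 18 without placebo right 1 h array 2.

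Under TatNR2B9c, where both times share a campaign, 0 genes passed between 1 h and 6 h in either hemisphere (0% of all genes in limma). In right cortex 10 members had an unadjusted p under 0.05, 8 of them higher at 6 h (19.4% of all genes). The member median was 0.17 with 38 of 56 above 0, beside a median of 0.04 and 54.7% over all genes. The brightest 10% of genes had a median of 0.22, above that of the members, with 30.9% of them below 0. The member median turned to −0.96 under median centring (47 of 56 below 0) and was 0.017 with the processed signals. Without the 3 arrays of weak reference, which enter the pooled spread only, 2 members passed. Neuron markers lay at a median of 0.96 (14 of 14 above 0, 0 passing), and their part was not tested. RPS15, at −1.23, −1.15 and −1.17 at 1 h and −0.29, −0.21 and −0.50 at 6 h, differed by 0.85 (SE 0.22, limma adjusted p = 0.0849) without overlap. RPL36 (0.81, SE 0.22) and RPL23 (0.64, SE 0.24) followed. In left cortex 4 members had an unadjusted p under 0.05 (16.1% of all genes), the median was 0.03 (−1.06 under median centring), and RPL7 (0.69, SE 0.27), RPL10L (−0.76, SE 0.32) and RPS15 (0.48, SE 0.22) had the smallest p.

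**Figure D5:**
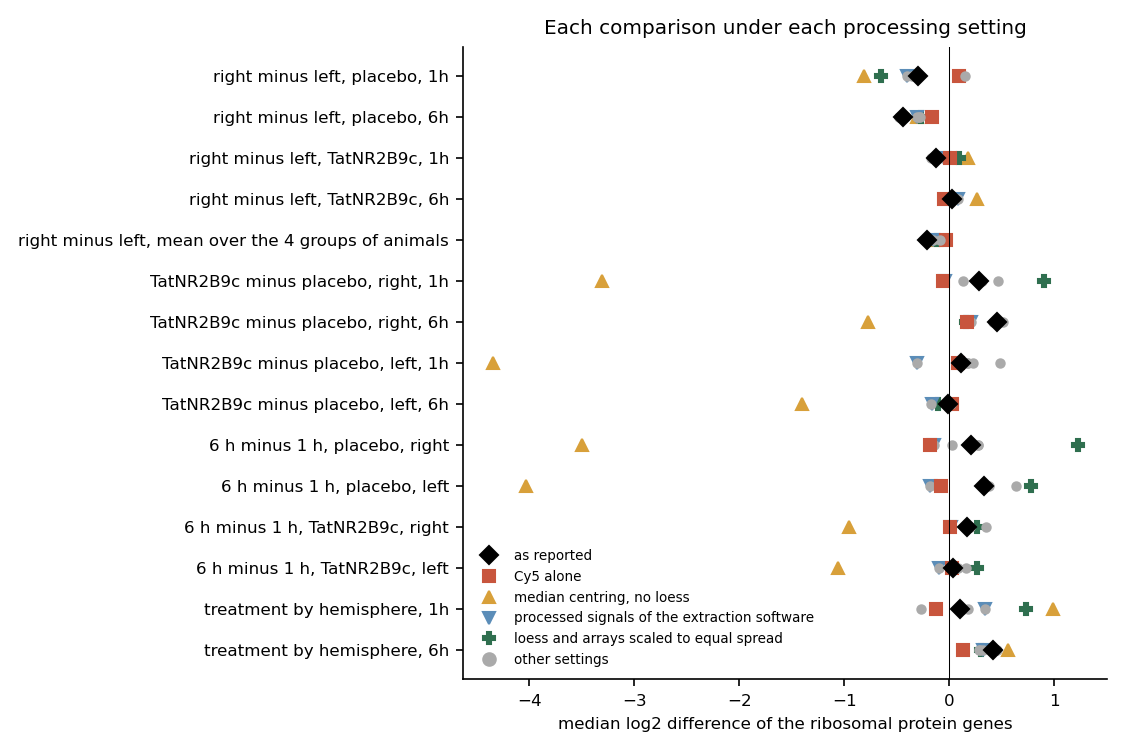
Median log2 difference of the ribosomal protein genes in each comparison under each processing setting, with the value as reported marked. The right-left median under placebo at 6 h lies below 0 and treatment by hemisphere at 6 h above 0 in each setting. Most comparisons across campaigns, and 6 h minus 1 h under TatNR2B9c on both sides, change sign with median centring.

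Within groups the members rose and fell together only in part. Over deviations of the 24 arrays from their group means, the mean correlation between pairs was 0.34 for the 41 bright genes, −0.03 for 14 dim genes, 0.33 for 17 small subunit genes and 0.14 for 38 large subunit genes, against 0.02 for all genes and 0.12 for the brightest 10%. The arrays share reference, loess fit and hybridisation, so these values are a description. RPS4X (0.92), RPS18 (0.92) and RPS28 (0.85) followed the median of the other bright genes most closely.

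Other genes of the translation machinery, from lists chosen with earlier results known, had smaller shifts in placebo right cortex at 6 h, and 0 of them passed in limma. Initiation factors, which load the small subunit onto messages, had a median right-left difference of −0.03 (13 of 26 below 0), elongation and termination factors −0.09 (8 of 11) and other TOP mRNA genes −0.20 (10 of 15). Ribosome assembly factors lay at −0.06 (21 of 31) and mTOR pathway and TOP regulators at −0.04 (8 of 14). In treatment by hemisphere at 6 h the same lists had medians of 0.19, 0.24, 0.22, 0.11 and 0.21. Beside them stood 0.41 for the ribosomal protein genes, 0.13 for all genes and 0.27 for the brightest 10% of genes.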

How the data were processed

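RNA of 24 cortical biopsies, 3 in each of 8 groups, was measured on 2-colour arrays. The intensity values are the spot means and local backgrounds deposited by the authors, and the deposited series matrix holds log10 ratios (column medians from 0 to 0.175), which lay within 0.005 of those in the scanner files. The submitters' processing notes name Agilent Feature Extraction 10.7.3.1, while the file headers also give 9.5.3.1 and 10.5.1.1. The other deposited columns used are 0/1 spot flags.

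Background was corrected with normexp (offset 50), arrays were normalised by loess with control spots at weight 0, and spots marked non-uniform by the extraction software were left out. Of 20217 gene probes 17226 were kept, 15905 genes entered, each by its brightest probe, and 13006 had a symbol. One model over 8 groups was fitted in limma 3.58.1 (R 4.3.3) with Benjamini-Hochberg adjustment over all genes and a threshold of 0.05, for 15 comparisons. A test on simulated data was run first.

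The members and lists were chosen with earlier results of these data known. Genes were named if they passed (at most the 6 largest), or else as the 3 with the lowest unadjusted p, plus a fixed set of stalk, core and paralog genes, given in full only in hemisphere comparisons. The split into bright and dim probes was chosen after seeing the data. Gene names are those of 3 versions of the array's annotation, and 54 member probes were named only in the oldest. No dyes were swapped, so dye bias remains in every ratio. Animals were read from replicate numbers shared by both hemispheres, and the correlation of their deviations ran from −0.71 to 0.69 and was over 0.1 in all 3 pairs only for TatNR2B9c at 1 h. Alternatives changed the background, normalisation, filter, probe rule, blocks, samples and members. One member is counted but not reported by name here.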

Additional observations from a re-analysis of the deposited data

How the results depend on the processing

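The right-left median under placebo at 6 h kept its sign in each setting tried, and so did treatment by hemisphere at 6 h. The right-left medians under placebo at 1 h and under TatNR2B9c at both times, treatment by hemisphere at 1 h and most comparisons across campaigns did not. Nor did 6 h minus 1 h under TatNR2B9c in either hemisphere, although both times share a campaign. In the following, "treatment" is TatNR2B9c minus placebo, "time" is 6 h minus 1 h, medians are log2 differences over the members and counts are of members passing in limma. The cause of each change was not tested, except that bright members only, without paralogs and settings that leave out arrays use fewer genes or arrays. With the setting "no background subtraction" the counts were 2 (treatment right 6 h). With the setting "median centring, no loess" the medians were −0.82 (right-left placebo 1 h), −0.31 (right-left placebo 6 h), 0.18 (right-left TatNR2B9c 1 h), 0.27 (right-left TatNR2B9c 6 h) and −3.31 (treatment right 1 h). Others were −0.77 (treatment right 6 h), −4.35 (treatment left 1 h), −1.41 (treatment left 6 h), −3.50 (time placebo right) and −4.04 (time placebo left). Others were −0.96 (time TatNR2B9c right), −1.06 (time TatNR2B9c left), 0.99 (treatment by hemisphere, 1 h) and 0.56 (treatment by hemisphere, 6 h). Its counts of genes passing were 48 (treatment right 1 h), 0 (treatment right 6 h), 50 (treatment left 1 h), 3 (treatment left 6 h) and 50 (time placebo right). Others were 53 (time placebo left). With the setting "loess and arrays scaled to equal spread" the medians were −0.65 (right-left placebo 1 h), −0.27 (right-left placebo 6 h), 0.91 (treatment right 1 h), 0.16 (treatment right 6 h) and 1.22 (time placebo right). Others were 0.78 (time placebo left), 0.26 (time TatNR2B9c left), 0.73 (treatment by hemisphere, 1 h) and 0.30 (treatment by hemisphere, 6 h). Its counts of genes passing were 1 (treatment right 1 h), 0 (treatment right 6 h), 1 (treatment left 1 h), 0 (treatment left 6 h) and 7 (time placebo right). Others were 4 (time placebo left). With the setting "the processed signals of the extraction software" the medians were −0.30 (right-left placebo 6 h), −0.039 (treatment right 1 h), 0.21 (treatment right 6 h), −0.31 (treatment left 1 h) and −0.16 (treatment left 6 h). Others were −0.14 (time placebo right), −0.19 (time placebo left) and 0.017 (time TatNR2B9c right). Its counts of genes passing were 1 (treatment right 1 h), 0 (treatment right 6 h), 3 (treatment left 1 h), 0 (treatment left 6 h) and 1 (time placebo right). Others were 4 (time placebo left). With the setting "the series matrix values" the medians were −0.30 (right-left placebo 6 h), −0.052 (treatment right 1 h), 0.21 (treatment right 6 h), −0.31 (treatment left 1 h) and −0.18 (treatment left 6 h). Others were −0.14 (time placebo right), −0.19 (time placebo left) and 0.017 (time TatNR2B9c right). Its counts of genes passing were 1 (treatment right 1 h), 0 (treatment right 6 h), 3 (treatment left 1 h), 0 (treatment left 6 h) and 1 (time placebo right). Others were 4 (time placebo left). With the setting "Cy5 alone" the medians were 0.10 (right-left placebo 1 h), −0.16 (right-left placebo 6 h), −0.056 (treatment right 1 h), 0.17 (treatment right 6 h) and −0.18 (time placebo right). Others were −0.079 (time placebo left), 0.0087 (time TatNR2B9c right) and 0.13 (treatment by hemisphere, 6 h). Its counts of genes passing were 12 (treatment right 1 h), 8 (treatment right 6 h), 14 (treatment left 1 h) and 20 (time placebo right). With the setting "mean of all kept probes" the counts were 2 (treatment right 6 h). With the setting "slide as a fixed block" the medians were −0.28 (right-left placebo 6 h), 0.35 (time TatNR2B9c right) and 0.30 (treatment by hemisphere, 6 h). With the setting "scan day as a fixed block" the medians were −0.29 (right-left placebo 6 h) and 0.28 (treatment by hemisphere, 6 h). With the setting "scan day as a random block" the counts were 0 (treatment right 1 h) and 0 (treatment right 6 h). With the setting "only the groups of the comparison" the counts were 0 (treatment right 1 h), 0 (treatment right 6 h) and 0 (treatment left 6 h). The setting "without the arrays of weak reference signal" kept array 2 as the only placebo left 1 h array. Its medians were 0.15 (right-left placebo 1 h), 0.49 (treatment left 1 h) and −0.27 (treatment by hemisphere, 1 h). Its counts of genes passing were 0 (treatment right 1 h), 7 (treatment right 6 h), 6 (time placebo right) and 2 (time TatNR2B9c right). With the setting "without paralogs" the counts were 4 (treatment left 6 h). With the setting "bright members only" the counts were 0 (treatment left 6 h), 6 (time placebo right) and 9 (time placebo left). Single genes turned direction as follows. Under median centring without loess, treatment right 1 h gave −2.89 for RPL11, −3.58 for RPLP1 and −3.17 for RPL3, treatment right 6 h gave −0.45 for RPS10, and treatment left 1 h gave −4.32 for RPL11, −4.37 for RPL41 and −4.71 for RPL3. With arrays scaled to equal spread, RPL3L was at 0.13 in time placebo left. RPL10 in time placebo right was at −0.73 with the processed signals and with the series matrix values. In Cy5 alone, time placebo right gave 0.51 for RPL3L, 0.35 for RPL10L, 0.71 for RPL36AL and −0.063 for RPL10, and time placebo left gave 0.32 for RPL10L, 1.13 for RPL3L, −0.36 for RPL10 and −0.070 for RPL37A.

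Leaving out 1 replicate at a time, medians ran from −0.42 to −0.05 (right-left placebo 1 h), from −0.27 to −0.17 (right-left over all animals), from 0.01 to 0.30 (treatment left 1 h) and from 0.17 to 0.40 (time placebo left). Others ran from 0.002 to 0.24 (treatment by hemisphere, 1 h), from 0.13 to 0.40 (treatment right 1 h), from 0.03 to 0.38 (time placebo right) and from −0.51 to −0.32 (right-left placebo 6 h). Others ran from −0.09 to 0.08 (treatment left 6 h), from 0.32 to 0.48 (treatment by hemisphere, 6 h), from 0.37 to 0.49 (treatment right 6 h) and from −0.24 to −0.04 (right-left TatNR2B9c 1 h). Others ran from −0.10 to 0.08 (time TatNR2B9c left), from 0.11 to 0.26 (time TatNR2B9c right) and from −0.04 to 0.05 (right-left TatNR2B9c 6 h). Counts ran from 0 to 1 (treatment left 1 h), from 14 to 20 (time placebo left), from 0 to 3 (treatment right 1 h), from 6 to 18 (time placebo right), from 4 to 9 (treatment left 6 h) and from 0 to 2 (treatment right 6 h), and were 0 throughout in the other 9 comparisons. With the replicate block (animal as a random block, correlation 0.047), 2 genes passed in treatment right 6 h against 1 without it, and the block changed no other count by over 1.5 times. With animal as a fixed block the right-left median under placebo at 6 h was −0.44, as without it. Same-numbered samples deviated together in all 3 pairs only under TatNR2B9c at 1 h (r = 0.24, 0.27 and 0.43). Weak Cy3 signal on 3 placebo 1 h arrays limits all comparisons with that group, and 3 arrays a group limit the precision of each.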

Other observations

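RPS3A of the small subunit and RPL13 of the large subunit varied more within groups than the other members. Both were singled out after their values were seen. The RPS3A probe was placed on rhesus chromosome 13 over 47 bases, while its human position is on chromosome 4, of which 13 is no usual partner. The spread of RPS3A within groups was 1.14 on the log2 scale (pooled SD over 24 arrays) and that of RPL13 0.86, the highest and second highest of 55 members with values in all groups. The median was 0.35 over these members and 0.29 over all genes. The intraclass correlation, which is 1 when both hemispheres of each animal deviate equally from their groups, was 0.82 for RPS3A and 0.73 for RPL13, against a median of −0.05 over members and 0.04 over all genes. In Cy5 alone it was 0.70 and 0.87. Single animals still differed between sides, in RPS3A by up to −1.53 (right minus left, placebo 1 h animal 1) and in RPL13 by up to 1.11 (placebo 1 h animal 3).

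The animals at 1 h and at 6 h were read as different ones, although their numbers repeat and the sample titles do not state it. For RPS3A, placebo animals 1, 2 and 3 had 0.19, −1.05 and −2.58 on the left and −1.35, −0.83 and −2.09 on the right at 1 h. The placebo animals at 6 h had −2.25, −2.80 and −0.76 on the left and −3.44, −3.07 and −0.92 on the right. The TatNR2B9c animals had −0.14, −1.36 and −3.16 on the left and −0.63, −1.80 and −3.00 on the right at 1 h, and those at 6 h −1.54, −1.34 and −2.47 on the left and −1.02, −1.10 and −2.84 on the right. In each TatNR2B9c group the sample numbered 3 was the lowest.

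For RPL13 the placebo animals had 0.50, −0.13 and −1.26 on the left and 0.05, 0.18 and −0.15 on the right at 1 h, and at 6 h 0.36, 1.16 and 0.13 on the left and 1.09, 0.35 and 0.22 on the right. Here the order of the animals differed between sides. The 4 TatNR2B9c samples numbered 3 had 0.19, 0.47, 0.57 and 0.43, and the other 8 ran from −1.85 to −0.88. These 4 samples, read as an animal at 1 h and another at 6 h, shared slide 9, so animal and slide cannot be told apart there. Under placebo at 6 h right arrays 2 and 3 shared slide 6 and had RPS3A at −3.07 and −0.92. RPL26L1, a copy of RPL26, had an intraclass correlation of 0.76, but 0.21 in Cy5 alone.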
